A study of Homo sapiens with 6 samples.

Results

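The strong interior sites of the m1G antibody precipitation in PANC-1 cells are places inside genes that both peak callers of the study picked out. They were defined as peaks of the MeTDiff list with a fold enrichment of 10 or more and 1 or 2 blocks, with at least 1 MACS2 summit inside a block and a transcript midpoint 500 bp or more from both ends of the gene span. Of the 18431 MeTDiff peaks, 363 met all of these conditions, and they lay in 338 genes. Fold, summit and position chose these sites, so their values are given as a description and no test was run on them.

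The study asked which mRNAs carry N1-methylguanosine (m1G) in PANC-1, an established human cell line of pancreatic ductal adenocarcinoma, with and without the methyltransferase TRMT5. Cells transfected with siRNA against TRMT5 for 4 days gave 2 m1G precipitates and 1 input library, and control cells gave 2 m1G precipitates and 1 input library, all 6 from batch I. The polyA+ RNA was broken into pieces of about 100 to 200 nt, and an anti-m1G antibody was used to pull down modified pieces. The labels do not say whether replicates were separate cultures, and the control samples are titled as WT while the protocol describes siRNA transfection of PANC-1 in general. Both peak lists cover the series as a whole and separate neither condition nor library, so TRMT5-depleted and control cells were not compared here, and no value below has an error over replicates. Every fold, score and false discovery rate (FDR) of a peak is the authors' deposited value, and the read depth behind it is unknown.

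m1G is a guanosine with a methyl group on a nitrogen that takes part in base pairing, and it is best known from tRNA. TRMT5 places it next to the anticodon, where it helps the ribosome to hold the reading frame. In methylated RNA immunoprecipitation, a transcript piece that the antibody holds is enriched over input. MACS2 scores such pile-ups along the genome and reports a summit, whereas MeTDiff works along the exons of each gene and reports a peak, which may be split into blocks by splicing, with a ratio of precipitate over input. An antibody peak marks a region and does not by itself show which base, if any, is modified.

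Sequence could be read only where a site lay over the 250 bases before a transcript start that RefSeq lists (build GRCh38.p14). In 6 sites at least 120 bases in 1 run fell there on the strand of their own gene, and these are shown because they let a reader see what the enriched stretches look like. Each window is read 5′ to 3′ on the strand of the gene and ends at the base before the listed start, with the bases inside the peak in capitals.
LZTS2, chr10:100999558-100999807, plus strand: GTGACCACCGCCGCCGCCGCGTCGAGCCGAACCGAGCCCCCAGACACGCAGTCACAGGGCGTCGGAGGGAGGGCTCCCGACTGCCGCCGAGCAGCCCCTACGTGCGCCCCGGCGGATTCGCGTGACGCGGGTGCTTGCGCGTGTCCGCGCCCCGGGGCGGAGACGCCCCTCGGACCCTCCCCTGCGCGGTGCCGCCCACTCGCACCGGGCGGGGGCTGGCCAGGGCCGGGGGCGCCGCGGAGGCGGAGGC
AFAP1L2, chr10:114404503-114404752, minus strand: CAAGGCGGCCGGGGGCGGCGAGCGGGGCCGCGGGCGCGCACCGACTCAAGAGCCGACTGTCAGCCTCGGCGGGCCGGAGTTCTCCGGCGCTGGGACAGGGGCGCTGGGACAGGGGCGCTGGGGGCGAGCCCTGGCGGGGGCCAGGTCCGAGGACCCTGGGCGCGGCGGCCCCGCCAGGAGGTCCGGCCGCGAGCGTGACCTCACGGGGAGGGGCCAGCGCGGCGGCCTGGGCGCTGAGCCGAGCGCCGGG
DYRK1A, chr21:37367307-37367556, plus strand: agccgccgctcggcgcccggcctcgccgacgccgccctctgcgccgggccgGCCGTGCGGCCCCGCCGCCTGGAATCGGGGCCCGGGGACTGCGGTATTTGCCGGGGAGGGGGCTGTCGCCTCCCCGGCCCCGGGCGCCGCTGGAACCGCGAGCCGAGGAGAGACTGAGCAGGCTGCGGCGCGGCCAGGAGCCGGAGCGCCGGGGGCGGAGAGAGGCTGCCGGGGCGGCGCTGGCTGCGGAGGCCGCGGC
CIC, chr19:42284219-42284468, plus strand: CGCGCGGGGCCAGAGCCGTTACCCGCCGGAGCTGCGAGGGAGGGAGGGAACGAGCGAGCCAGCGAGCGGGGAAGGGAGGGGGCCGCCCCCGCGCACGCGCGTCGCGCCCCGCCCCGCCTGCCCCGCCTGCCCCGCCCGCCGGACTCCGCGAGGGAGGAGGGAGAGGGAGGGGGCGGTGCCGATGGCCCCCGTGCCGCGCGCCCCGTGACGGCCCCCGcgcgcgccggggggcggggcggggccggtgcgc
DDX3X, chrX:41333912-41334161, plus strand: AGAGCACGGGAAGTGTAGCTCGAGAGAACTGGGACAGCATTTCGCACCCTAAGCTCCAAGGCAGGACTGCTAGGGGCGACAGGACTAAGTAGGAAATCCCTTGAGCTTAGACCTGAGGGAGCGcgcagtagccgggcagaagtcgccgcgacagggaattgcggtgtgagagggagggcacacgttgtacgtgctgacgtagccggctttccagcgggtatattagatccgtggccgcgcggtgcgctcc
AKT2, chr19:40265352-40265601, minus strand: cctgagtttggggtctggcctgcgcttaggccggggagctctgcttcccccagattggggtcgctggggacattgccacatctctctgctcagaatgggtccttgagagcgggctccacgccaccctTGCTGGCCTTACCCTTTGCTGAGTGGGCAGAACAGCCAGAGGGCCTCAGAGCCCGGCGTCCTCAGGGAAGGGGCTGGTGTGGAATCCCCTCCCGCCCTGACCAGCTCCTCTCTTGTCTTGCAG
LZTS2 encodes a leucine zipper protein, AFAP1L2 an adaptor of SRC kinase signalling, DYRK1A a protein kinase, CIC a transcriptional repressor, DDX3X an RNA helicase and AKT2 a kinase of insulin and PI3K signalling. The peak bases were 80% G or C in LZTS2, 81.6% in AFAP1L2, 80.9% in DYRK1A and 82.9% in CIC, against 64.2% in AKT2 and 56.1% in DDX3X. Over the 13 sites with at least 50 bases in such a window the median was 79.5% G or C (range 56.1 to 84.8) and 43.8% G. Other peaks of named genes with as many bases there (n = 232) had a median of 72.9% G or C and 40.5% G, and the 35116 windows as a whole had 58.0% and 28.0%. These windows are promoter-proximal by construction and hold few of the 363 sites, so they do not describe the base composition of the rest.

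A peak was given the name of the gene whose span held it, on the same strand where the RefSeq tables gave the strand of the gene. For the 59 sites in genes without a listed start, PABPC4 and SLC66A2 among them, the name rests on position alone. Of the 2344 peaks with a fold of 10 or more, 2120 had 1 or 2 blocks, and 730 of those held a summit. A single gene could be named for 653 of these. Another 77 could not be named and were left out, although 17 of them were interior to every gene span that could apply. The named peaks split into 363 interior sites, 254 peaks near the 5′ end and 36 near the 3′ end. Of all peaks of named genes, 2.23% were strong interior sites (363 of 16276), and 4.75% of named genes held one (338 of 7113). Among interior peaks of 1 or 2 blocks, 32.1% of those with a fold of 10 or more held a summit, against 7.77% of those with a lower fold.

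HDGF, which encodes a heparin-binding growth factor, held the site of largest fold, 73.9, on chromosome 1 (156751445 to 156751644, FDR 0.00295). Its MACS2 score was 46.3, where the score is −log10 of the p or q of a summit. MELTF, which encodes the cell-surface transferrin-like protein melanotransferrin, followed with 64.5-fold and a score of 61.0 on chromosome 3 (197002712 to 197003261), in a peak that overlapped a peak of another gene ID. SEMA4B, a membrane-bound semaphorin, had 50.4-fold with a score of 88.5. EHBP1L1, a protein of membrane traffic, also had 50.4-fold, with a score of 49.0. SOX12, a transcription factor of the SOX family, came next with 48.8-fold, a score of 35.6 and an FDR of 7.1e-08. MEIS3, a homeobox transcription factor, had 48.7-fold and INPPL1, the inositol phosphatase also known as SHIP2, had 48-fold. PABPC4, a cytoplasmic poly(A)-binding protein, had 45.7-fold, and PEX10, which is needed to build peroxisomes, had 44.5-fold. PICALM, an adaptor of clathrin-coated pits, had 43.3-fold. TMEM63A, a membrane channel gene, had 40.3-fold and UBE2R2, a ubiquitin-conjugating enzyme, 40.1-fold. These 12 sites were the ones at 40-fold or more.

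The 8 next strongest sites ranged from 31 to 36.5-fold. They lay in ANKRD11, a chromatin regulator, at 36.5-fold, in the span of the readthrough gene TMEM276-ZFTRAF1 at 36-fold and in ARL6IP4 at 35.8-fold. The name TMEM276-ZFTRAF1 rests on position alone. RRBP1, a ribosome-binding protein of the endoplasmic reticulum, had 33.3-fold, and NAT8L, which makes N-acetylaspartate, had 32.5-fold. SEMA7A, a semaphorin anchored in the membrane by a lipid, had 31.3-fold, the chaperone gene HSPH1 31.1-fold and the zinc finger gene FIZ1 31-fold. Most sites were nearer to the minimum. The median fold was 14.3, with 198 sites from 10 to under 15, 77 from 15 to under 20, 63 from 20 to under 30 and 25 at 30 or more. At the lower edge, TMEM9, RASGRF2 and PLPP7 sat just inside at 10-fold with scores of 10.2, 8.05 and 5.43, while LRP10 at 9.95, RECQL4 at 9.94 and MAFK at 9.93 were just outside, with scores of 23.6, 19.4 and 21.5. The folds also lay on steps, since 123 of the 363 (33.9%) were multiples of 0.5, where evenly spread folds of 1 decimal would give 20%.

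**Figure D1:**
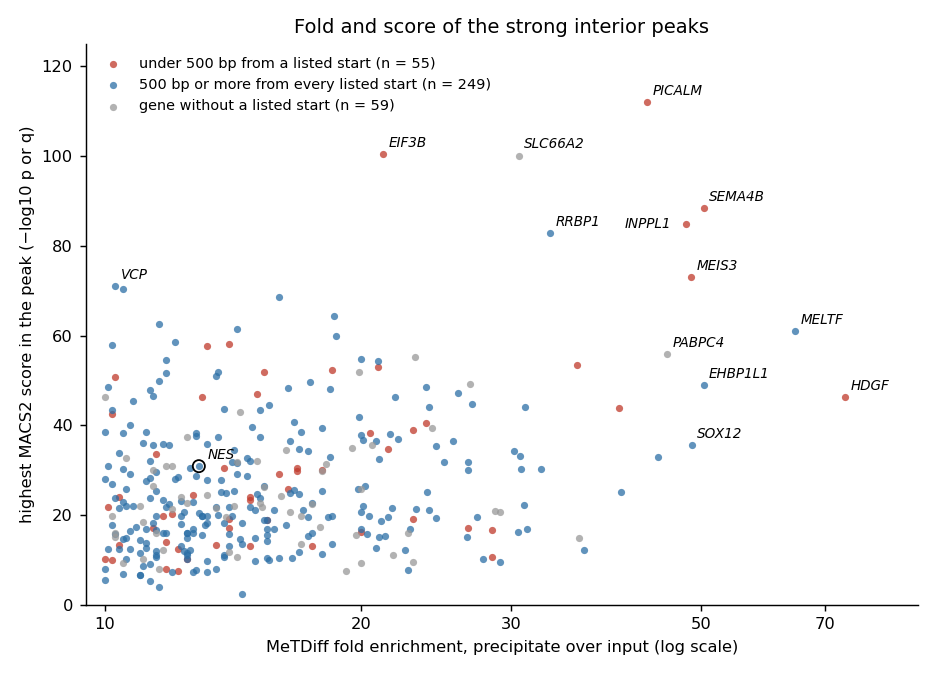
Each point is 1 of the 363 strong interior sites, with the MeTDiff fold (a ratio of precipitate over input) on the x axis and the MACS2 score of the highest summit inside the peak on the y axis. The x axis is a log scale, and colours mark sites under 500 bp from a listed start (n = 55), sites 500 bp or more from every listed start (n = 249) and genes without one (n = 59). PICALM has the highest score, 112, and HDGF the largest fold, 73.9, and most sites lie below 20-fold over a broad range of scores.

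The MACS2 scores put other genes first. PICALM led with 112 (chromosome 11, 86068709 to 86069009), and it also had the smallest FDR of the sites, 4.9e-09. EIF3B, a subunit of the translation initiation factor that binds the small ribosomal subunit, had 100.5 at a fold of only 21.2. SLC66A2, which belongs to the PQ-loop transporter family, had 100.1 at 30.6-fold. SEMA4B with 88.5, INPPL1 with 84.9, RRBP1 with 82.9 and MEIS3 with 73.1 came from among the largest folds as well. VCP, the ATPase that extracts proteins for degradation, had a score of 71.0 at 10.3-fold, and VWA1, an extracellular matrix protein, had 70.4 at 10.5-fold. P4HTM, a membrane-bound prolyl hydroxylase, had 68.7, and PDXDC1, a decarboxylase-like protein, had 64.4. IRAK1, a kinase of Toll-like and interleukin receptor signalling, had 62.5, and NACC2, a transcriptional repressor, had 61.5. The remaining scores among the highest 20 were 61.0 in MELTF, 60 in CHLSN, 58.5 in the arginine methyltransferase PRMT2, 58.1 in the kinase STK25, 57.9 in the RNA-binding protein ZC3H7B, 57.7 in the centrosomal protein PPP1R35 and 55.8 in PABPC4. High fold and high score thus overlapped in part, with 7 sites among the 20 highest of both.

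Over the 363 sites the score ran from 2.34 to 112, with a median of 22.6, and 260 sites (71.6%) were at or above 16.4, the median of all MACS2 summits. A score of 50 or more was reached by 33 sites, and 27 were under 10. The FDR had a median of 5.4e-04 and was 0.001 or less in 233 sites and 0.01 or less in 358. After PICALM, the smallest FDRs were 6.2e-09 in OAF, 5.9e-08 in FUOM, an enzyme of fucose metabolism, 7.1e-08 in SOX12 and 1.3e-07 in ASPHD1. MeTDiff FDRs are not separate measurements within a gene, because 122 of the 308 sites in genes with several peaks shared their p-value with another peak of the gene. The sites in OAF, FUOM, SOX12 and ASPHD1 were all among these 122, so their small FDRs do not belong to the site alone. Across sites, which share libraries and depth, Spearman's rho was 0.213 between fold and score, −0.322 between score and log10 FDR, 0.277 between score and peak length and −0.0203 between fold and log10 FDR (n = 363 each). The sites covered 99 to 1400 bp of transcript with a median of 301 bp, 291 had 1 block and 72 had 2. Single summits were held by 349 sites and 2 summits by 14. The highest summits were 361 distinct positions, since overlapping peaks in FAM83H and in ZBTB42 shared theirs.

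Distance from the gene ends varied widely. Of the 363 sites, 61 lay under 1000 bp from the 5′ end of the span, 37 lay under 1000 bp from the 3′ end and 268 were 1000 bp or more from both. In ANKRD11 the site lay 203182 bp from the 5′ end, and 43 sites were in gene spans of 100 kb or more. With the span cut into 5 equal stretches from the 5′ end, 88 sites (24.2%), 45 (12.4%), 43 (11.8%), 51 (14%) and 136 (37.5%) were counted. The stretch at the 3′ end held the most, but it did so as well among all peaks of named genes, of which the 5 stretches held 26.9, 9.2, 11.2, 16.3 and 36.4%. Among all 11135 interior peaks of 1 or 2 blocks, at any fold, they held 12.8, 11.5, 14.2, 20.6 and 40.9%, so the share of the sites was above this background in the stretch at the 5′ end and below it in the one at the 3′ end. These differences were not tested. Introns make up most of a gene span and transcript models were not used, so these stretches do not divide the mRNA evenly.

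Interior by gene span did not always mean far from a transcript start. RefSeq listed at least 1 start for the genes of 304 sites, and 55 of these sites (18.1%, 95% Wilson interval 14.2 to 22.8, counting error only) lay under 500 bp from one, 46 downstream and 9 upstream. In strong interior peaks without a summit the share was 12% (interval 9.66 to 14.8), and in interior peaks with a summit and a fold under 10 it was 9.35% (7.31 to 11.9). Over all peaks of named genes with a listed start it was 22.4% (2974 of 13303), which counts the peaks at the 5′ ends too. Several of the strongest sites were of this kind. The site in HDGF was 15822 bp from the 5′ end of the span but 131 bp past a listed start, and those in SEMA4B, INPPL1, MEIS3 and PICALM were 142, 198, 199 and 225 bp past one. By contrast, those in MELTF, EHBP1L1, TMEM63A and ANKRD11 lay 26831, 9237, 36269 and 203182 bp past the nearest listed start. The 55 sites had a median score of 25.9, a median fold of 15.1 and a median FDR of 3.7e-04, against 22.1, 14 and 5.5e-04 in the 249 sites farther from every listed start. Another 59 sites had no listed start to compare with.

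NES, the gene of the intermediate filament protein nestin, which the study names beside TRMT5, held a strong interior site. It had 12.9-fold, a score of 30.9 and an FDR of 2.1e-07 on chromosome 1 (156669210 to 156669857), 770 bp from the 3′ end. The largest fold of the gene, 18.2, belonged to a peak of 3 blocks nearer the 5′ end, which the limit on blocks left out. The remaining peaks of NES had 9.62-fold, 6.82-fold and 4.64-fold. TRMT5 itself had no strong interior site, and its 3 peaks had folds of 1.75, 3.25 and 3.6 with no summit inside.

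Most genes held a single strong interior site, namely 316 of the 338, while 19 held 2 and 3 held 3. NAT8L had 3 sites along its final stretch, of 32.5-fold with a score of 30.3, 19.9-fold with 41.8 and 15-fold with 21.2, at 3756, 2662 and 1592 bp from the 3′ end. PLEC, the gene of the cytoskeletal linker plectin, had 3 sites of 10-fold, 14.4-fold and 12.5-fold with scores of 46.4, 43.0 and 37.4, among 15 MeTDiff peaks in all. The midpoints of the 3 PLEC sites lay 9546, 6590 and 5016 bp from the 3′ end. FAM83H, linked to enamel and keratin filaments, also had 3, but those of 12-fold and 11.8-fold overlapped and held the same summit of score 31.0, which leaves 2 distinct places. The site nearer its 3′ end had 16.3-fold and a score of 34.4.

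Among genes with 2 sites, KIF26A, an atypical kinesin, had 30.7-fold and 11-fold. CTDP1, a phosphatase of the RNA polymerase II tail, had 25.6-fold and 16.8-fold. ZNF316, a zinc finger gene, had 25-fold and 15.5-fold, and PKD1, the gene of polycystin, had 23.9-fold and 10.2-fold. In NHSL3 the pair had 20-fold and 11.5-fold, in ZC3H7B 20-fold and 10.2-fold, and in the kinase gene MAP3K10 18.3-fold and 10.2-fold. Of the 363 sites, 296 were the peak of largest fold in their gene, and in 55 genes the site was the only MeTDiff peak. LAMA5, a laminin chain of basement membranes, was one exception: its sites had 11.7-fold and 11.5-fold, below a 24.8-fold peak of the gene that held no summit.

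**Figure D2:**
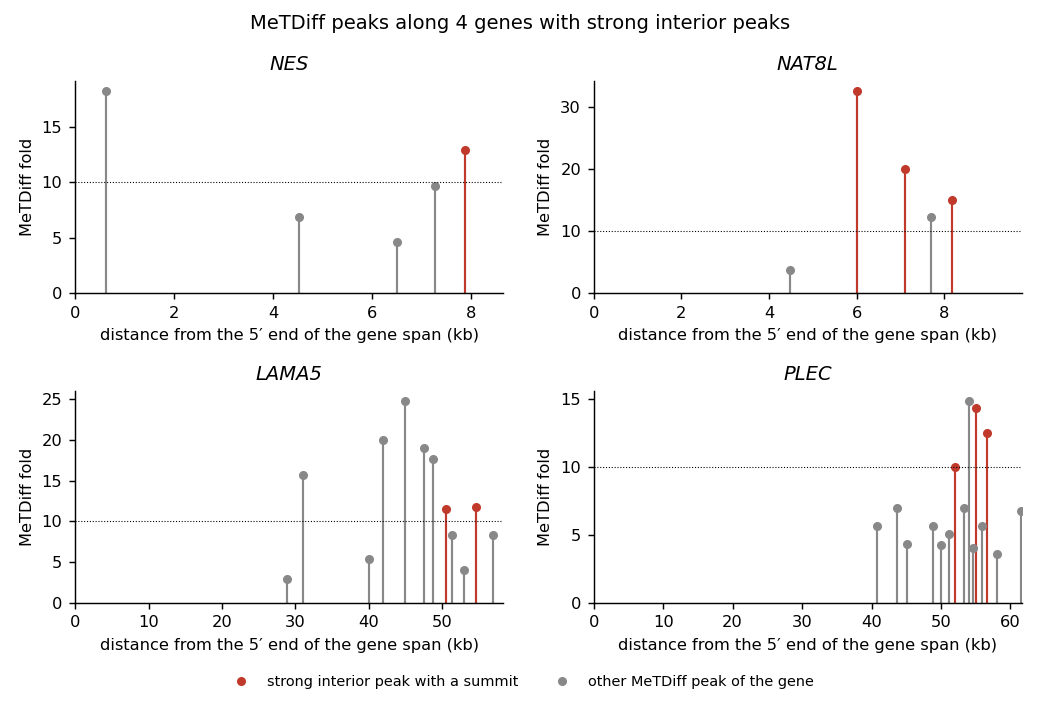
For NES, NAT8L, LAMA5 and PLEC, MeTDiff peaks are drawn along the gene by distance from the 5′ end of the span, with their fold on the y axis, strong interior sites in red, other peaks of the gene in grey and a dotted line at a fold of 10. In NAT8L and PLEC 3 sites each lie in the part of the gene toward its 3′ end, and in NES the site of 12.9-fold lies near the 3′ end. The other MeTDiff peaks of PLEC lie toward the 3′ end as well, and those of NAT8L are at 4489 and 7697 bp of a span of 9763 bp.

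Gene groups were read against the share of all named genes with a strong interior site, 4.75%. The 30 lists held 1353 genes, of which 967 had a MeTDiff peak and 53 a strong interior site, while 285 of the 338 genes were in no list. The lists do not hold every gene of a function, so each count covers the listed genes only. No list was tested, and the Wilson intervals cover counting error only. Of the 30 intervals, 27 hold 4.75%, and those of intermediate filaments and plakins, translation factors, and vesicle coats begin above it, at 10.9, 6.86 and 4.95%. The lists differ in peaks per gene, which were 5 in the median for intermediate filaments and plakins and 1.5 for translation factors. Genes with a site had a median of 3 peaks, against 2 in all named genes, and the part of peak number in these shares was not tested.

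Intermediate filaments and plakins came first by share, while the other cytoskeletal lists had no site among their listed genes. Of the 15 intermediate filament and plakin genes with a MeTDiff peak, 4 held a strong interior site (26.7%, interval 10.9 to 52.0). EVPL, the envoplakin gene of the cornified envelope, had 20-fold and SYNM, which encodes the filament protein synemin, 18-fold, beside PLEC and NES above. In the matrix list 2 of 24 genes had one, the proteoglycan gene GPC1 with 12.8-fold and LAMA5. None of the 41 listed actin and motility genes and none of the 32 listed tubulin, kinesin and dynein genes did. The intervals allow shares of up to 8.57% and 10.7%. Genes outside these lists did hold sites, among them the kinesin gene KIF26A above and the actin regulators ROCK2 with 18.5-fold and ENAH with 16.8-fold.

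Translation factors and poly(A)-binding proteins had 5 of 32 genes with a site (15.6%, interval 6.86 to 31.8). They were PABPC4 with 45.7-fold, EIF3B with 21.2-fold, LARP1, which binds the ends of mRNAs for ribosomal proteins, with 20.9-fold, EIF4G2, a scaffold of alternative initiation, with 13.5-fold, and PAIP1, a partner of poly(A)-binding protein, with 10.1-fold. Of these, PABPC4, EIF4G2 and PAIP1 lay 848, 609 and 547 bp from the 5′ end of the gene. Relative to the nearest listed start, EIF4G2 lay at −321 bp, on the upstream side, and PAIP1 213 bp past it. PABPC4 had no listed start. The sites in EIF3B and LARP1 lay 1105 and 72958 bp from the 5′ end of the gene, but 364 and 560 bp past a listed start. The other lists of protein synthesis had fewer. Of 50 cytosolic ribosomal protein genes 1 had a site, RPL18 with 11.1-fold, and of 25 aminoacyl-tRNA synthetase genes 0 did. Among 31 tRNA modification genes it was 2, the dihydrouridine synthase gene DUS1L with 17.3-fold and TARBP1, a tRNA ribose methyltransferase, with 13.2-fold. Of 19 genes of mRNA methylation, capping and reading 0 had one.

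Protein folding and traffic were represented by several well-known genes. Of 50 chaperone and stress response genes 5 had a site (10.0%, interval 4.35 to 21.4). HSPH1 had 31.1-fold, SQSTM1, the autophagy receptor p62, 30.5-fold, TCP1, a subunit of the cytosolic chaperonin, 11.9-fold, EIF2AK3, the stress kinase PERK, 11.8-fold, and VCP 10.3-fold. Of 44 genes of vesicle coats and RAB proteins 5 had one (11.4%, interval 4.95 to 24.0). After PICALM these were the clathrin adaptor subunit AP1B1 with 30.2-fold, the Golgi matrix gene GOLGA2 with 14.9-fold, the recycling GTPase gene RAB11B with 13.6-fold and AP3D1, of another adaptor complex, with 10.6-fold. AP1B1, RAB11B and AP3D1 lay 622, 541 and 746 bp from the 3′ end. N-glycosylation had 3 of 34, MGAT2 with 23.8-fold, MAN2A2 with 11.5-fold and GMPPB with 11.3-fold, the first 2 being Golgi enzymes of glycan trimming and branching. The lysosome and endosome list had 2 of 37, LAMP1, a lysosomal membrane protein, with 22.7-fold and HGS, which sorts receptors on endosomes, with 10.5-fold. Transporters had 4 of 52, namely SLC66A2, SLC35F2 with 20-fold, the zinc transporter gene SLC39A1 with 11.8-fold and the anion exchanger gene SLC4A2 with 10.8-fold.

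In each of the signalling and chromatin or transcription lists the interval held 4.75%. Receptors and ligands had 3 of 42, HDGF, SEMA4B and the cadherin CELSR1 with 10.2-fold. AKT2 with 10.2-fold was the only 1 of the 42 listed RAS, MAPK, PI3K and mTOR genes. MAP3K10 above and RASA1 with 10.4-fold are not in that list and held sites. AXIN1, a scaffold of the beta-catenin destruction complex, with 15-fold, and LTBP3, which binds latent TGF-beta, with 10.9-fold and 10.7-fold, were the 2 of 28 in the TGF-beta and Wnt list. Of 19 pancreatic cancer driver genes 2 had a site, the chromatin remodelling gene ARID1B with 18.5-fold and the kinase gene STK11 with 13.2-fold. Chromatin genes had 3 of 54, among them ARID1B and TNRC18 with 13.6-fold. Transcription machinery had 3 of 23, CTDP1, BRF1, a factor of RNA polymerase III, with 14.5-fold and the lowest score of all sites, 2.34, and the Mediator subunit gene MED25 with 11.6-fold.

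Among the listed splicing and hnRNP genes 2 of 36 had a site, HNRNPK with 22.1-fold and SON with 11.2-fold. SFPQ with 12.5-fold and HNRNPA0 with 10.4-fold held sites but are not in that list. Single sites were found in the apoptosis list, in BBC3, which encodes the p53 target PUMA, with 14.8-fold, in the cell cycle list, in the spindle gene NUMA1 with 16.9-fold, in the glycolysis list, in the lactate exporter gene SLC16A3 with 18-fold, in the nuclear transport list, in RANGAP1 with 13.8-fold, and in the ubiquitin list, in UBE2R2. Of the listed genes, DNA replication and repair had 0 of 28 and cholesterol and fatty acid synthesis 0 of 23. Mitochondrial energy and translation had 0 of 43, which allows up to 8.20%. Outside these lists, sites lay in the repair genes TONSL with 17.5-fold and MAD2L2 with 15.6-fold and in the mitochondrial gene NDUFAF3 with 14.8-fold. As for cell identity, 3 of the 4 ductal keratin genes had a MeTDiff peak but none held a strong interior site. Of 26 marker genes of endocrine, acinar, stromal, endothelial and blood cells, 3 had a MeTDiff peak, the collagen genes COL1A1 and COL3A1 and the macrophage gene CD68, and 0 a site.

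**Figure D3:**
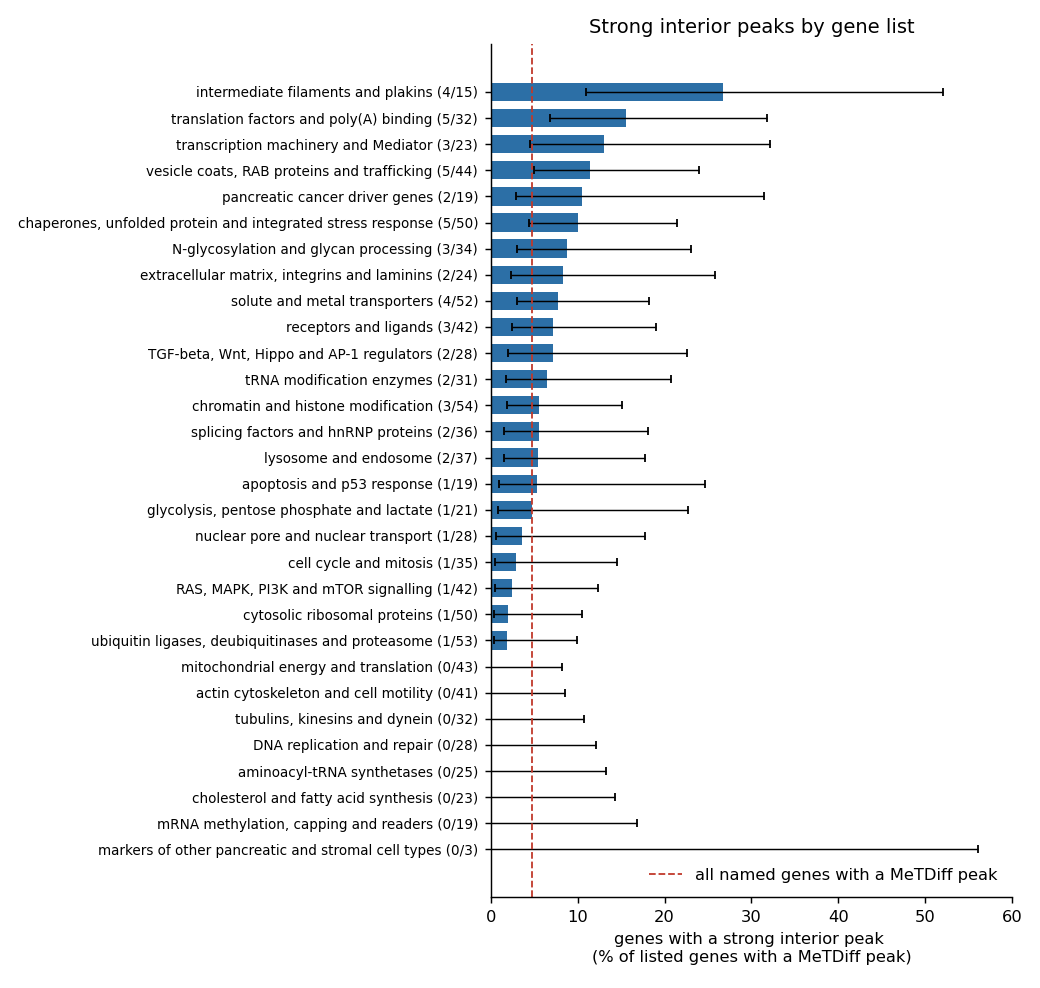
For each gene list the horizontal bar is the share in percent of its genes with a MeTDiff peak that hold a strong interior site, with the 95% Wilson interval as the whisker and the share of all named genes, 4.75%, as the dashed line. Intermediate filaments and plakins stand highest at 26.7%, and 27 of the 30 intervals cross the line.

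RefSeq classes 353 of the 363 sites under protein-coding genes and 10 under long noncoding RNAs. The class is that of the span that gave the name. Where that span is a readthrough gene, the deposited gene ID may belong to a gene inside it. MIR1915HG, a host transcript of a microRNA, had the strongest of the noncoding ones with 30.8-fold and a score of 30.2. TEN1-CDK3, a readthrough transcript, had 19.7-fold and FBXL19-AS1 18-fold. MAGI2-AS3 had 16.4-fold, MAPKAPK5-AS1 14.8-fold and LOC284600 14.5-fold. The 4 others lay between 11.8-fold in RAET1E-AS1 and 14.1-fold in STAG3L5P-PVRIG2P-PILRB. RAET1E-AS1 had the highest noncoding score, 51.6, but overlapped a peak of another gene ID, as did MAPKAPK5-AS1 and 27 sites in all. No site overlapped any of 1562 microRNA hairpins. The sites were on both strands, 186 plus and 177 minus, and on 23 chromosomes. Chromosome 19 held 48 sites (13.2%, interval 10.1 to 17.1), against 11% of all peaks of named genes, which lies inside that interval. The interval missed the share of all named peaks on 3 chromosomes. Chromosome 12 held 1.93% of the sites (0.937 to 3.93) against 4.91% of named peaks, chromosome 2 held 3.03% (1.7 to 5.34) against 5.42%, and chromosome 18 held 1.93% (0.937 to 3.93) against 0.909%. These rest on 7, 11 and 7 sites, and the intervals cover counting error only. On chromosome 18, 2 of the 7 sites lay in the same gene, CTDP1, although the interval counts them as separate. The intervals were not adjusted for the number of chromosomes looked at.

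The sites were set beside 3 groups of named peaks that missed a single condition. The 769 strong interior peaks of 1 or 2 blocks without a summit had a median fold of 13.1, against 14.3 in the sites, and a median FDR of 0.00132. They were shorter, with a median of 150 bp against 301 bp in the sites. A longer peak can hold a summit more easily, so length is tied to the condition itself. The 254 strong peaks near the 5′ end had a median fold of 15 and a median score of 31.1, and the 36 near the 3′ end had 13.4-fold and 26.5, while the sites had a median score of 22.6. The 777 interior peaks with a summit but a fold under 10 had a median score of 13.8 and a median length of 250 bp. Since these groups are defined by the same values, the differences are given without a test.

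The callers placed the signal at different points within a site. The highest summit lay at a median of 22.6% of the peak from its 5′ edge on the strand of the gene (quartiles 12.4 and 37.7), and in 316 of the 363 sites (87.1%) it was nearer the 5′ than the 3′ edge. The shift followed the strand of the gene, with 166 of 186 sites on the plus strand and 150 of 177 on the minus strand. The median distance was 72 bp from the 5′ edge and 79.0 bp from the middle, and 94 summits lay within 50 bp of the middle. Among 505 strong interior peaks of 1 block that held no summit, 212 (42.0%) had one within 100 bp beyond the 5′ edge and 12 (2.38%) within 100 bp beyond the 3′ edge. For all other named 1-block peaks without a summit the shares were 11.5% and 1.31% (n = 8912). Whether a summit fell inside a block, and so whether a peak counted as shared by both callers, thus often turned on fewer than 100 bp. The cause of the shift was not tested.

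**Figure D4:**
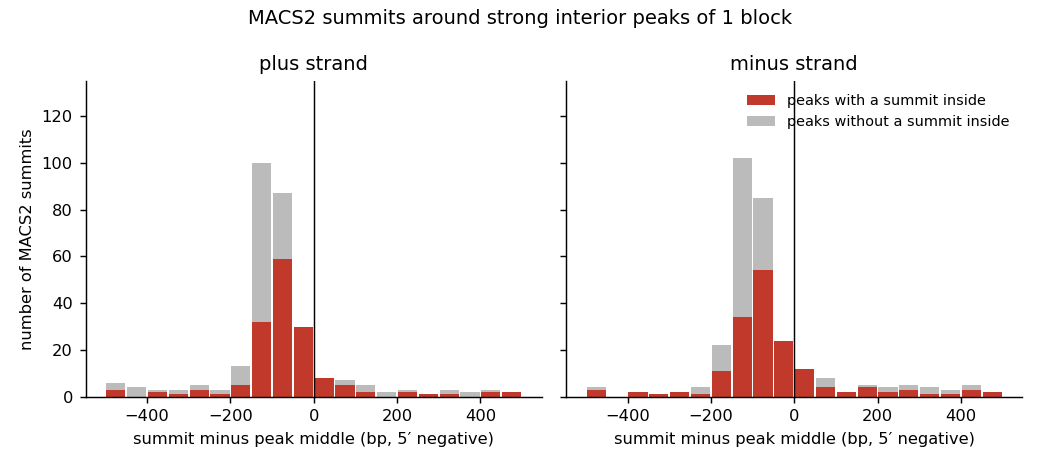
The plot counts MACS2 summits in 50 bp steps by their distance from the middle of strong interior MeTDiff peaks of 1 block, with negative values toward the 5′ side of the gene, for peaks with a summit inside and for those without, stacked, on each strand. On both strands the counts are highest on the 5′ side. Peaks with a summit inside have most at 50 to 100 bp from the middle, with 59 and 54 summits. Peaks without one have most at 100 to 150 bp, with 68 on each strand, and there the stacked bars are tallest.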

How the data were processed

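Per the labels, 6 libraries of PANC-1 RNA were sequenced. The build was GRCh38, and MACS2 2.2.5, STAR 2.7.1, bedtools, ChIPseeker, featureCounts, Picard and SAMtools were used, per the submitters' processing notes. Their roles and the pooling of libraries stand in no source used here. The authors deposited 2 peak lists. The deposited MACS2 list gives 6264 summits with the −log10 of a p or q that the caller computed (from 2.01 upward). No source says whether it is p or q. The MeTDiff list gives 18431 peaks with a deposited p-value, the deposited log10 of the FDR and a deposited fold, taken as a ratio of precipitate over input from the column order and the values. Neither list holds counts, so depth is unknown.

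From these, with Python 3.11.15, pandas 2.3.3, numpy 2.4.6 and scipy 1.17.1, each gene ID took the name of the only RefSeq gene (GRCh38.p14) whose span overlapped all of its peaks, with the strand required to match where the promoter table listed the gene. This named 7113 of 8386 IDs, while 648 could be several genes, 408 none, and 217 came second to another ID. A name therefore refers to the surrounding gene span. Exon, coding and UTR positions were not assigned. Distances run from the transcript midpoint of a peak to the ends of the span, and a summit counted where at least 1 base lay in a block. Sequences and starts are from RefSeq promoter windows of GRCh38.p14. The search for sites was checked on simulated data.

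The sites and the gene lists were chosen with earlier results of these data known. Named were the 20 largest folds, the 20 highest scores, the 5 smallest FDRs, 10 genes with several sites, up to 4 sites of each list, 3 peaks on each side of the minimum fold, and TRMT5 and NES. AP3D1 and PAIP1 in their lists, the noncoding genes, the genes of the printed sequences and CD68, COL1A1 and COL3A1 were named beyond this rule, after their values were seen. So were ROCK2, ENAH, RASA1, HNRNPA0, SFPQ, TONSL, MAD2L2 and NDUFAF3, as genes outside the lists. A gene that the rule names is not reported here. No test was run, and shares have 95% Wilson intervals. The 95% intervals of the medians in the recomputation below come from the ranked values of the sites.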

Additional observations from a re-analysis of the deposited data

How the results depend on the processing

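Each of 4 values was recomputed under 12 other settings, 9 of them planned and 3 chosen after seeing the data. The planned ones changed the minimum fold, score, distance, blocks, FDR, summit span and overlap with other gene IDs. The 363 sites in 338 genes became 165 in 161 genes with a minimum fold of 15, and 627 in 571 genes where a summit up to 100 bp beyond the 5′ edge of a block also counted, a setting chosen after seeing the data. The other 10 settings left both counts within 1.5 times, among them naming without strand, which gave 352 sites in 327 genes.

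The median score of 22.6 moved to 21.2 with a minimum fold of 8, to 25.8 with a minimum of 15, to 29.9 with only summits at or above the median score, and to 21.2 with summits beyond the 5′ edge. The median position, 61.5% of the span from the 5′ end, moved to 46% at 250 bp from both ends and to 74.0% where sites under 500 bp from a listed start were also left out, again chosen after seeing the data. Under the remaining settings, 8 for the score and 10 for the position, the medians stayed within the 95% interval of the reported one.

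No paired analysis was possible because the lists carry no samples, and for the same reason no replicate was left out of the count of 363. Unknown depth limits every fold.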
